A study of Mus musculus with 60 samples.

Results

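The genes described are 37 lysosomal genes whose RNA was measured in the mouse embryonic stem cell line R1 after each of 19 compounds had acted for 6 h. The list was made by gene name, with earlier results of these data known: 13 glycosidases, 5 enzymes or cofactors of sulfate and sphingolipid breakdown, 6 proteases, 7 membrane proteins and 6 subunits of the V-ATPase, the proton pump of the lysosome. All 37 were measured, out of 19938 gene symbols carried by 21789 probe sets. Where a gene had several probe sets the brightest was taken; 36 members had 1 probe set, and Arsb had 2. No filter on low signal was applied. On the array 34 of the 37 lay above the median brightness of all probe sets, between the 43.1 and 96.5 percentile in all.

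R1 is a widely used line derived from mouse blastocysts. It was cultured on feeder cells, freed of feeders before seeding, and exposed while attached and undifferentiated. Each of 20 groups had 3 arrays, and every group contained 0.1% DMSO. The 9 compounds labelled non-teratogens were loratadine at 0.043 mM, glybenclamide at 0.37 mM, clozapine at 0.028 mM, ondansetron at 0.054 mM, metoclopramide at 0.17 mM, and chlorthalidone, hydrochlorothiazide, sulfasalazine and paracetamol at 1 mM. The 10 labelled teratogens were VPA, (-)-d-penicillamine, dimethadione, fluconazole and topiramate at 1 mM, (+/-)-Thalidomide at 0.35 mM, dexamethazone at 0.1 mM, All trans retinoic acid at 0.024 mM, methotrexate at 0.028 µM and 5-azacytidine. For 5-azacytidine the titles give 0.23 µM and the treatment field gives 23 µM. The last group received DMSO alone. Doses followed the concentration that lowered viability by 10%, the limit of solubility or a ceiling of 1 mM, so most compounds were not given at matched doses.

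Lysosomes break down proteins, glycans and lipids in an acidic lumen. The V-ATPase pumps protons into that lumen, soluble hydrolases do the digestion, and membrane proteins protect the boundary, carry out the products and release calcium. Transcription factors of the MiT/TFE family, among them TFEB, are known to bind E-boxes near the start sites of many lysosomal genes.

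Promoter sequence was looked up as well, because the members had been grouped into roles by protein function alone. RefSeq windows on GRCm38.p6, running 250 bases before to 50 after a start site, were available for 33 of the 37 members; Asah1, Ctsb, Atp6v1c1 and Atp6v1h were not matched. The E-box CACGTG reads the same on both strands, as does the longer TCACGTGA that contains it, so each search covered both strands and every longer motif also counted as an E-box. The E-box lay in the windows of 14 of 33 members (42.4%), 9 of 58 other lysosomal genes (15.5%) and 2187 of all 27025 genes with a window (8.09%). The longer motif lay in 7 of 33 members (21.2%), 6 of 58 other lysosomal genes (10.3%) and 304 of 27025 genes (1.12%). The following stretches show 5 of the 7 members with the longer motif, and Lamp1, which held the most E-boxes (4); capitals mark the E-box. They belong to a calcium channel (Mcoln1, chr8:3500428-3500499, plus strand), a lysosomal membrane protein (Cln3, chr7:126583332-126583405, minus strand) and an aspartic protease (Ctsd, chr7:142387900-142387945, minus strand). The others are those of alpha-galactosidase A (Gla, chrX:134601174-134601252, minus strand), protective protein (Ctsa, chr2:164833741-164833772, plus strand) and a membrane glycoprotein (Lamp1, chr8:13159080-13159160, plus strand).
Mcoln1: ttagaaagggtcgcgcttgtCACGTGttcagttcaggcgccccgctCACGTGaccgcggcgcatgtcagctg
Cln3: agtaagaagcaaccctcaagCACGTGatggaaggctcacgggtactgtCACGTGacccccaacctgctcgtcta
Ctsd: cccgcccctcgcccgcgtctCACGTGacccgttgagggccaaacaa
Gla: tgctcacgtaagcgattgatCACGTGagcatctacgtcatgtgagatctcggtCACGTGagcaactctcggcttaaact
Ctsa: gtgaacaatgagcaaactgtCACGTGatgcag
Lamp1: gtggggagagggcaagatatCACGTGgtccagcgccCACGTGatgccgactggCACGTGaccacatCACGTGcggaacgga
The motif was spread over the roles: 4 of 13 glycosidases, 2 of 4 genes of sulfate and sphingolipid breakdown, 3 of 5 proteases, 3 of 7 membrane proteins and 2 of 4 V-ATPase subunits held it. A match describes the letters of the window only.

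**Figure D1:**
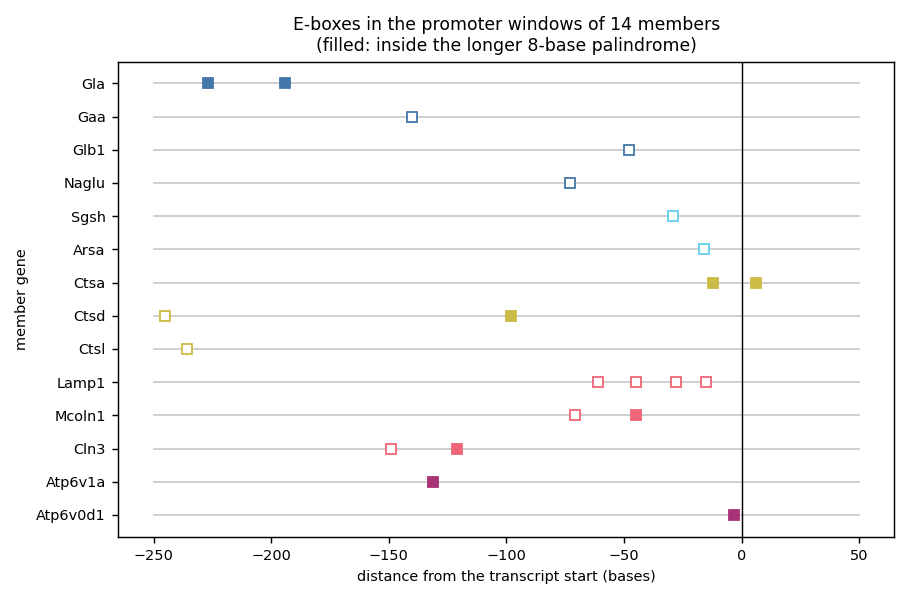
Position of each CACGTG in the promoter window of the 14 members that held one, as distance in bases from the transcript start; filled squares lie inside TCACGTGA and colours mark the role. Lamp1 carries 4 E-boxes, and Gla, Mcoln1, Cln3, Ctsa and Ctsd carry 2 each; for Cln3 and Ctsa the second of 2 annotated starts is shown.

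Most members rose after a subset of the compounds, and the rises were small. Over the 703 pairs of a member and a compound, 140 pairs were called higher and 2 lower than DMSO (limma, adjusted p under 0.05 over all 21789 probe sets of a comparison). That is 19.9% and 0.284% of the member pairs; over all probe sets 2.84% of such pairs were called higher and 2.19% lower. The largest was 1.96-fold. Of the 37 members, 34 (91.9%) were called higher after at least 1 compound, against 28.8% of all probe sets, and 3 (Sgsh, Arsb and Lamp1) after none. The median member log2 fold change was 0.37 after loratadine, 0.23 after clozapine, 0.23 after VPA, 0.22 after glybenclamide, 0.19 after chlorthalidone and 0.17 after ondansetron. The median of all probe sets in these comparisons stayed between -0.04 and 0.00. Member calls appeared after 10 compounds. After each of these, probe sets as bright as the members were called higher more often than all probe sets. Among the 11636 within the members' range of mean signal, 17.6% were higher after loratadine, 23.2% after VPA, 11.2% after glybenclamide and 9.39% after retinoic acid. The share was 9.00% for sulfasalazine, 7.53% for paracetamol, 2.34% for chlorthalidone, 1.91% for clozapine, 0.516% for ondansetron and 0.344% for metoclopramide. All 19 comparisons used the same 3 DMSO arrays, so they are not independent of one another. In bulk RNA, a change in the RNA of each cell and a change in the kinds of cells present cannot be told apart.

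**Figure D2:**
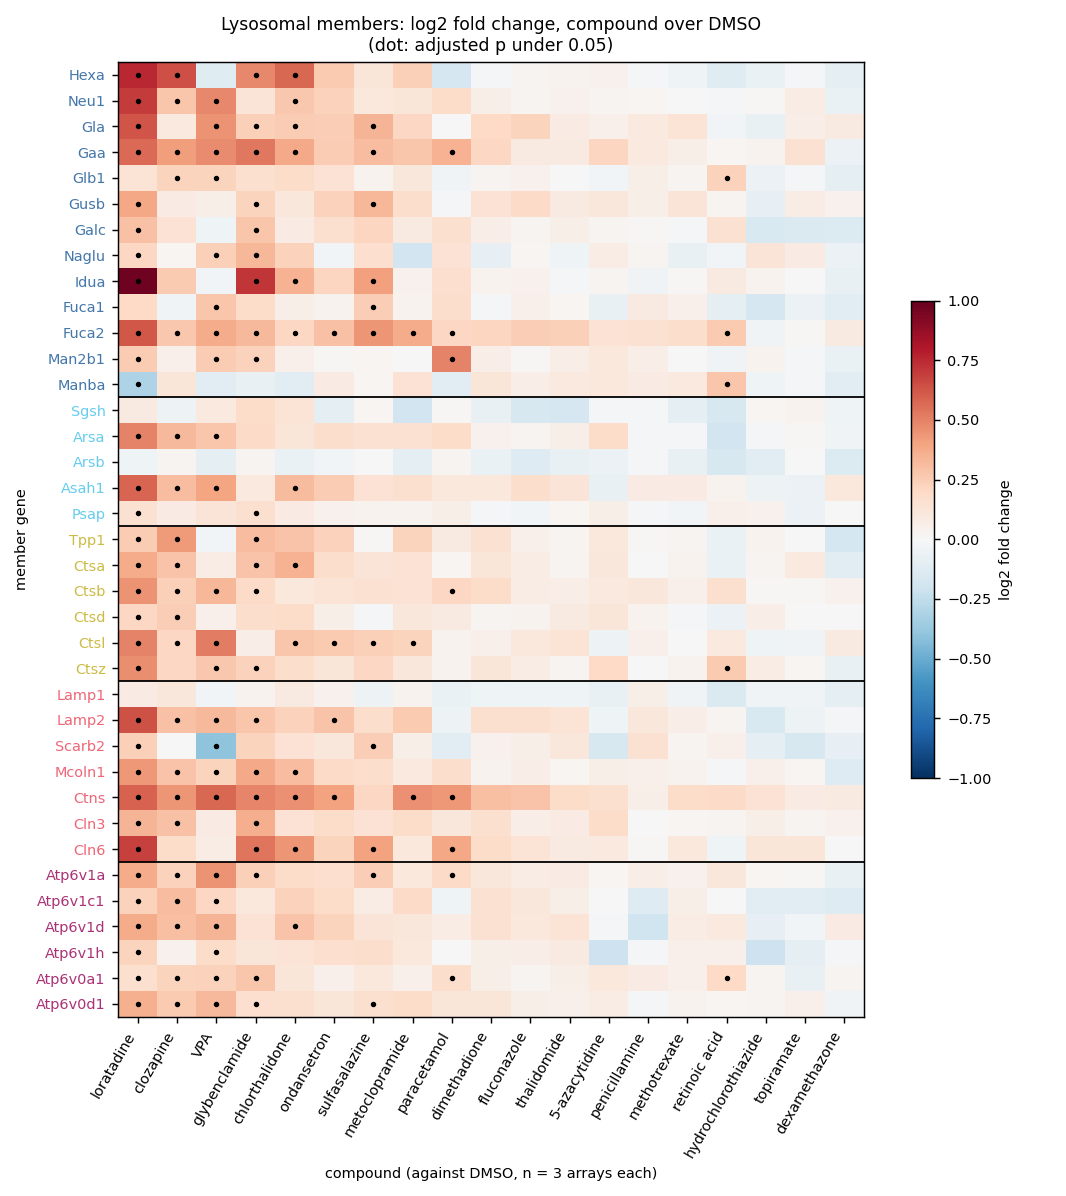
Log2 fold change against DMSO of the 37 members (rows, by role) after 19 compounds (columns); a dot marks an adjusted p under 0.05. Loratadine, VPA, glybenclamide and clozapine have the most dots, with 32, 23, 22 and 21, and the rows of Sgsh, Arsb and Lamp1 have none.

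The cultures kept stem cell signal in every group. The 10 markers of the undifferentiated state were bright, and their mean log2 signal per array lay between 11.9 and 12.2; in DMSO the single genes ran from 10.3 for Klf4 to 13.6 for Dppa5a. The 15 fibroblast markers, for residual feeder cells, had array means from 8.64 to 8.93. In DMSO Lum was dim at 4.46, while Vim (13.1) and Fn1 (12.9) were bright. The collagen genes among them ran from 8.27 for Col3a1 to 9.62 for Col1a2 and 10.1 for Col1a1. Array medians ran from 7.58 to 7.79 and interquartile ranges from 2.97 to 3.31. Among the DMSO arrays, replicate 2 had the lowest interquartile range, 3.11 against 3.20 and 3.23. Its mean over the members was also the lowest, 9.98 against 10.02 and 10.03. No pair of arrays held identical values. The labels call the arrays triplicates without saying that they came from separate cultures, so p-values measure only the spread between these arrays.

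Loratadine, an antihistamine, was followed by the most member calls: 31 of 37 members rose and 1 fell, while 10.9% of all probe sets were called higher and 8.26% lower. All 3 loratadine arrays lay above all 3 DMSO arrays for 34 members, against 19.1% of all probe sets. Of the 13 glycosidases 10 rose, and they held the largest changes of single members. Idua encodes alpha-L-iduronidase, which degrades heparan and dermatan sulfate. Its log2 signal was 9.11, 9.16 and 9.19 on the loratadine arrays, against 8.17, 8.30 and 8.07 on the DMSO arrays. These values did not overlap, and the log2 fold change was 0.97 ± 0.09 (SE, n = 3 each, limma adjusted p = 9.49e-12). Hexa, the alpha subunit of beta-hexosaminidase, had 10.42, 10.35 and 10.42 with loratadine, against 9.64, 9.60 and 9.70 with DMSO. Its arrays were also fully apart, at 0.75 ± 0.0793 (adjusted p = 3.57e-10). Neu1, a sialidase, had 9.24, 9.32 and 9.46 with loratadine and 8.57, 8.70 and 8.67 with DMSO, a log2 fold change of 0.70. Gla, which removes terminal galactose from glycolipids, had 10.10, 9.99 and 10.10 against 9.51, 9.34 and 9.46 in DMSO. For Neu1 and Gla too, the lowest loratadine array exceeded the highest DMSO array, and the adjusted p values were 1.61e-11 and 5.05e-10.

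Manba, the beta-mannosidase, was the exception among the glycosidases. It had 9.43, 9.43 and 9.32 on the loratadine arrays and 9.76, 9.65 and 9.69 on the DMSO arrays. The loratadine arrays were all lower, and Manba fell by 0.30 (adjusted p = 0.00017). Fuca1, the lysosomal alpha-fucosidase, and Glb1, the beta-galactosidase, were not called (0.20 and 0.14, adjusted p = 0.0673 and 0.0842). Of 15 alternatives, the call was lost in 5 for Naglu (0.21) and 3 for Galc (0.29). For Naglu these included the omission of DMSO replicate 1 or 3 and of loratadine replicate 1 or 3. For Galc they included the omission of DMSO replicate 2 and of loratadine replicate 1.

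In the group of sulfate and sphingolipid breakdown, 3 of 5 genes rose after loratadine. Asah1, the acid ceramidase, had 11.34, 11.23 and 11.34 with loratadine, against 10.82, 10.57 and 10.79 with DMSO (0.58 ± 0.078, adjusted p = 1.48e-07). The groups did not overlap, although the DMSO arrays themselves spread over a wider range than for most members. Arsa, the arylsulfatase that acts on sulfatide, changed by 0.50, and Psap, the precursor of the saposins that present sphingolipids to enzymes, by 0.15 (adjusted p = 1.3e-07 and 0.0348). The call of Psap was lost in 8 of 16 alternatives, among them the omission of each DMSO array and of loratadine replicate 2 or 3. Sgsh, the sulfamidase of heparan sulfate, and Arsb, the arylsulfatase of dermatan sulfate, were not called (0.09 and -0.04).

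All 6 proteases rose after loratadine. Ctsl, a cysteine protease, had 11.85, 11.90 and 11.86 with loratadine and 11.38, 11.36 and 11.38 with DMSO. Both groups were tight and far apart (0.50 ± 0.0446, adjusted p = 4.26e-12). Ctsz and Ctsb, also cysteine cathepsins, changed by 0.46 and 0.45, and Ctsa, which protects sialidase and beta-galactosidase from degradation, by 0.37. Tpp1, a tripeptidyl peptidase, changed by 0.25 and Ctsd by 0.21 (adjusted p = 0.0424 and 0.0189). The call of Tpp1 was lost in 9 of 16 alternatives, among them the omission of each DMSO array and of loratadine replicate 2 or 3, and that of Ctsd in 3, among them the omission of DMSO replicate 3 or loratadine replicate 3.

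Of the 7 membrane proteins, 6 rose after loratadine. Cln6, an endoplasmic reticulum protein needed for the supply of lysosomal enzymes, had 11.57, 11.69 and 11.68 with loratadine, against 10.95, 10.94 and 11.01 with DMSO (0.68 ± 0.0746, adjusted p = 8.86e-10). Lamp2, a major membrane glycoprotein and receptor of chaperone-mediated autophagy, had 10.35, 10.31 and 10.27 against 9.71, 9.60 and 9.71 in DMSO (0.64, adjusted p = 4e-10). Ctns, the cystine exporter, had 10.02, 10.05 and 10.03 against 9.47, 9.42 and 9.44 in DMSO (0.59, adjusted p = 2.07e-08). In each of these genes the loratadine and DMSO arrays were separate. Mcoln1, the calcium channel, changed by 0.44, Cln3 by 0.34 and Scarb2, a sorting receptor of glucocerebrosidase, by 0.24. The call of Scarb2 was lost without DMSO replicate 1 or 2 or loratadine replicate 1, and with the interquartile range as a covariate. Lamp1, the brightest member, was not called (0.08, adjusted p = 0.303).

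The 6 listed V-ATPase subunits all rose after loratadine, by less than the leading hydrolases. The cytosolic-sector subunit Atp6v1d had 11.63, 11.57 and 11.61 with loratadine and 11.22, 11.17 and 11.30 with DMSO (0.37, adjusted p = 0.000154). Atp6v1a, the catalytic subunit, also changed by 0.37, and Atp6v0d1 of the membrane sector by 0.35. Atp6v1c1 followed at 0.23, Atp6v1h at 0.23 and Atp6v0a1 at 0.16. Of 16 alternatives, the call was lost in 6 for Atp6v0a1, 3 for Atp6v1c1 and 2 for Atp6v1h, each time including the omission of DMSO replicate 2, and of loratadine replicate 1 for Atp6v1c1 and Atp6v1h or replicates 2 and 3 for Atp6v0a1. The median log2 fold change per role was 0.44 for membrane proteins, 0.41 for proteases, 0.39 for glycosidases, 0.29 for V-ATPase subunits and 0.15 for the sulfatase and sphingolipid group.

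The loratadine count ranged over the alternatives from 25 when the interquartile range of the arrays was a covariate, or without DMSO replicate 2, to 34. That range was 3.24 to 3.27 with loratadine and 3.11 to 3.23 in DMSO. With the average of the other 18 compounds in place of DMSO, 30 members were called higher and 1 lower, where 12.4% of all probe sets were higher and 11.5% lower. Of the fibroblast markers, 4 of 15 fell and 1 rose after loratadine; their mean per array was 8.66 to 8.72, against 8.71 to 8.78 in DMSO. Of the stem cell markers 2 of 10 rose (Esrrb and Klf4). Among members with a window, the median change was 0.36 for the 14 with CACGTG, of which 11 rose, and 0.37 for the 19 without, of which 16 rose. With clozapine 10 of the 14 (median 0.24) and 8 of the 19 (0.21) rose, with VPA 9 (0.23) and 9 (0.13), and with glybenclamide 8 (0.21) and 13 (0.23). With chlorthalidone it was 5 (0.19) and 7 (0.17), and with sulfasalazine 5 (0.15) and 6 (0.17). These splits are given without a test. Members that rose after loratadine were found on both sides. Idua, Hexa, Cln6 and Ctns had no CACGTG in the window, while Gla, Gaa, Ctsl, Arsa and Mcoln1 held it.

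**Figure D3:**
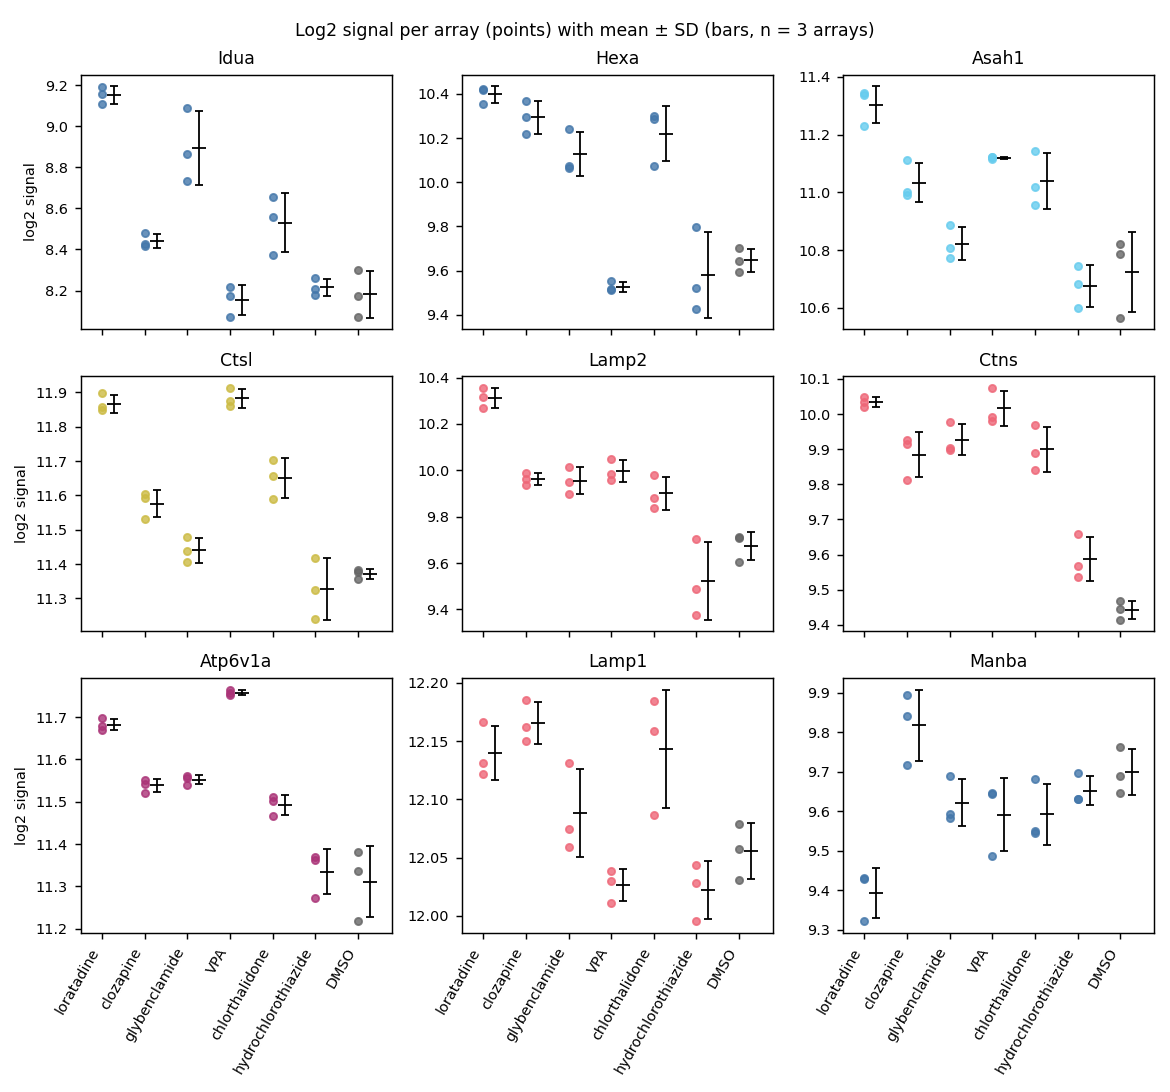
Log2 signal of selected members on each array (points) with mean ± SD (n = 3 arrays per group), with DMSO as the last group of each panel. The loratadine points of Idua, 9.11 to 9.19, lie above its DMSO points, 8.07 to 8.30.

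VPA (valproic acid, an antiepileptic and inhibitor of histone deacetylases) at 1 mM was followed by a rise in 22 of 37 members and a fall in 1. Of all probe sets, 15.5% were called higher and 11% lower, the most of any compound. All 6 listed V-ATPase subunits rose, with 8 of 13 glycosidases, 3 of 6 proteases, 3 of 7 membrane proteins and 2 of 5 genes of sulfate and sphingolipid breakdown. Ctsl had 11.88, 11.91 and 11.86 with VPA, against the DMSO values of 11.38, 11.36 and 11.38 (0.51 ± 0.0446, adjusted p = 4.98e-13). Atp6v1a had 11.75, 11.76 and 11.76 with VPA and 11.34, 11.22 and 11.38 with DMSO (0.45, adjusted p = 1.73e-08). Ctns had 10.07, 9.98 and 9.99 with VPA and 9.47, 9.42 and 9.44 with DMSO (0.57, adjusted p = 1.4e-08). None of these genes overlapped between VPA and DMSO. Further rises were seen in Neu1 (0.48), Gaa, the acid glucosidase of glycogen (0.47), Gla (0.45), Asah1 (0.39), Fuca2 (0.37), Atp6v1d (0.34), Ctsb (0.33), Lamp2 (0.32), Atp6v0d1 (0.32), Arsa (0.28), Ctsz (0.27), Atp6v0a1 (0.23) and Mcoln1 (0.23). Naglu, which acts on heparan sulfate, changed by 0.24, though it was not called without DMSO replicate 3. Atp6v1c1 was not called without DMSO replicate 2, VPA replicate 2 or VPA replicate 3, and Atp6v1h not without DMSO replicate 2 or VPA replicate 3. Neither was called with the interquartile range as a covariate. Mcoln1 was not called against the average of the other 18 compounds.

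Scarb2 was the member that fell. It had 9.30, 9.28 and 9.25 on the VPA arrays, against 9.62, 9.63 and 9.79 on the DMSO arrays, a log2 fold change of -0.40 ± 0.0762 (adjusted p = 4.04e-05). Hexa and Idua, the leading genes after loratadine, were not called after VPA (-0.12 and -0.03, adjusted p = 0.31 and 0.89). Hexa had 9.55, 9.52 and 9.51 with VPA, all under its DMSO arrays. Over the alternatives 21 to 28 members were called. With the average of the other 18 compounds in place of DMSO, 23 were higher and 5 lower, where 19.1% of all probe sets were higher and 15.6% lower. Stem cell markers moved in the same comparison: 5 of 10 fell (Sox2, Nanog, Zfp42, Esrrb and Utf1), and their mean per array was 11.86 to 11.88 with VPA, against 12.11 to 12.14 in DMSO. Their part in the member changes was not tested.

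**Figure D4:**
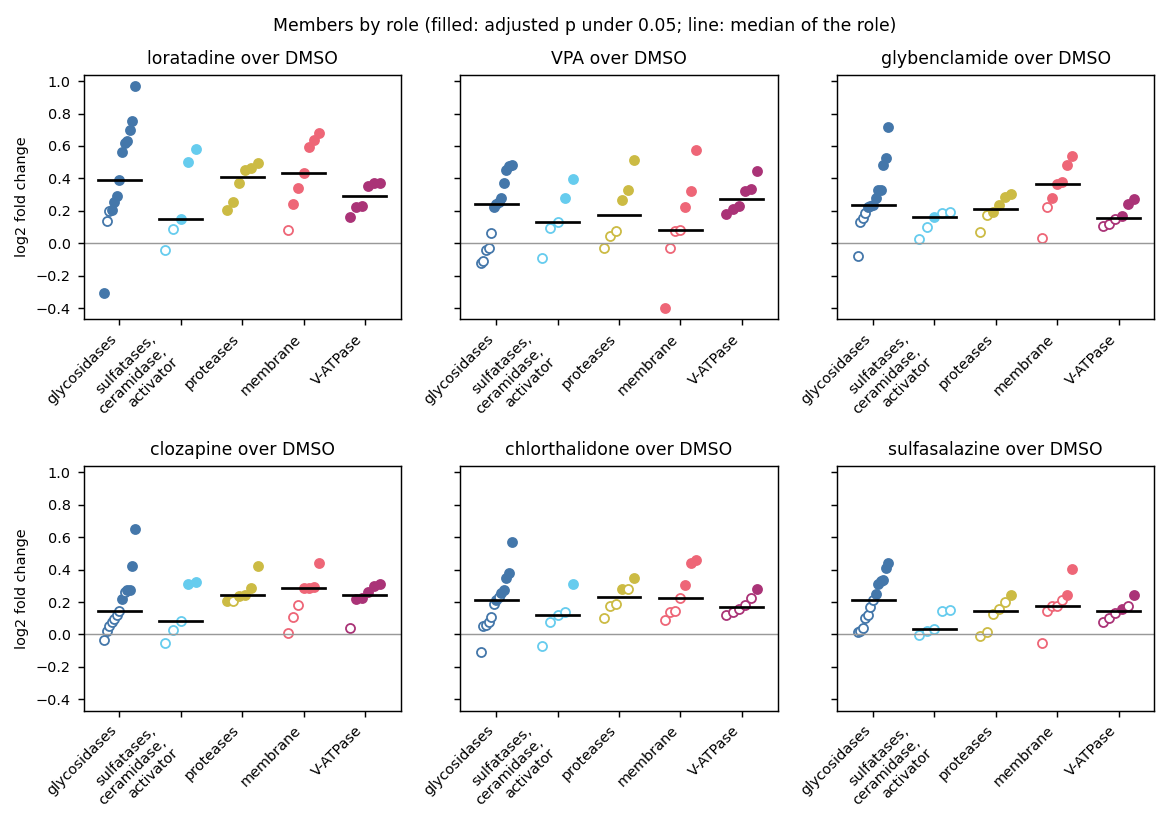
Log2 fold change of every member against DMSO, by role, after the compounds named above the panels (filled, adjusted p under 0.05; line, median of the role). After loratadine the medians run from 0.15 for the sulfatase and sphingolipid group to 0.44 for membrane proteins.

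Loratadine and VPA were then set against each other directly, without DMSO, although their doses (0.043 and 1 mM) were not matched. The 2 compounds differed in 17 of 37 members: 16 were higher with loratadine and 1 was lower. Of all probe sets 13.6% were higher and 15.9% lower in this contrast. The difference in Idua was 1.00 (95% interval 0.82 to 1.18), with means of 9.15 in loratadine and 8.15 in VPA. Hexa differed by 0.87 (0.71 to 1.03), Scarb2 by 0.64 (0.49 to 0.79) and Cln6 by 0.61 (0.46 to 0.76). Galc, the galactocerebrosidase, differed by 0.33, Gusb, the beta-glucuronidase, by 0.33, and Lamp2 by 0.32. The difference in Manba, the member lower with loratadine, was -0.20. The V-ATPase subunits did not pass the test in any of 6 cases; the ends of all their 95% intervals lay within 0.19 of 0. Ctsl and Ctns were close as well, at -0.02 (-0.10 to 0.07) and 0.02 (-0.13 to 0.17). Over the members, the median difference was 0.12, against -0.04 over all probe sets. Leaving out single arrays gave 12 to 16 calls.

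Glybenclamide, a sulfonylurea for diabetes, was followed by a rise in 22 of 37 members and no fall, where 6.79% of all probe sets were called higher and 2.75% lower. Of the roles, 9 of 13 glycosidases, 5 of 7 membrane proteins, 4 of 6 proteases and 3 of 6 V-ATPase subunits rose. Idua had 9.09, 8.73 and 8.87 with glybenclamide and 8.17, 8.30 and 8.07 with DMSO (0.72 ± 0.09, adjusted p = 1.7e-07). Its first array stood above the other glybenclamide arrays, and all 3 exceeded DMSO. Cln6 had 11.56, 11.45 and 11.49, against 10.95, 10.94 and 11.01 in DMSO (0.54, adjusted p = 1.18e-06). Gaa had 10.79, 10.50 and 10.57, against 10.13, 10.03 and 10.13 in DMSO (0.52, adjusted p = 3.16e-05). Neither gene overlapped with DMSO. The count was 13 without DMSO replicate 2 and 14 when the interquartile range of the arrays was a covariate; that range was 3.23 to 3.30 in glybenclamide and 3.11 to 3.23 in DMSO. Of the fibroblast markers 2 of 15 fell and none rose.

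Clozapine, an antipsychotic, was followed by a rise in 21 of 37 members and no fall, with 1.1% of all probe sets called higher and 0.211% lower. All 3 clozapine arrays lay above DMSO for 26 members, against 10.1% of all probe sets. Calls fell on 5 of 6 proteases and 5 of 6 V-ATPase subunits, on 4 of 7 membrane proteins and on 5 of 13 glycosidases. Hexa had 10.29, 10.22 and 10.37 with clozapine, against 9.64, 9.60 and 9.70 with DMSO (0.65 ± 0.0793, adjusted p = 1.73e-07). Ctns had 9.93, 9.81 and 9.92 with clozapine and 9.47, 9.42 and 9.44 with DMSO (0.44, adjusted p = 0.000102). Tpp1 had 10.84, 10.78 and 10.85 with clozapine and 10.43, 10.34 and 10.43 with DMSO (0.42, adjusted p = 0.00493). The arrays of the 2 groups were separate in each gene. The other calls had an adjusted p of 0.00165 to 0.0376. The count was 8 without DMSO replicate 2, 9 without clozapine replicate 1, 10 without clozapine replicate 3, 12 without DMSO replicate 1 and 4 in a model of these 6 arrays alone. The member median was 0.21 to 0.26 over the alternatives that kept DMSO. With the average of the other 18 compounds in place of DMSO it was 0.11, and 8 members were called higher, where 1.17% of all probe sets were higher. Of the stem cell markers 1 of 10 rose.

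Chlorthalidone, a diuretic, at 1 mM was followed by a rise in 13 of 37 members and no fall, with 1.44% of all probe sets called higher and 1.14% lower. All 3 of its arrays lay above all 3 DMSO arrays for 32 members, against 9.99% of all probe sets. Hexa had 10.29, 10.30 and 10.08 with chlorthalidone, against 9.64, 9.60 and 9.70 with DMSO (0.57 ± 0.0793, adjusted p = 2.49e-06). Ctns had 9.89, 9.84 and 9.97 with chlorthalidone and 9.47, 9.42 and 9.44 with DMSO (0.46, adjusted p = 4.15e-05). Cln6 had 11.41, 11.42 and 11.38 with chlorthalidone and 10.95, 10.94 and 11.01 with DMSO (0.44, adjusted p = 0.000108). Again none of these overlapped. The count was 8 without chlorthalidone replicate 3, 6 in a model of these 6 arrays alone, and 21 after quantile normalisation or with the interquartile range as a covariate. Against the average of the other 18 compounds 7 were higher, where 1.62% of all probe sets were higher. Of the stem cell markers 1 of 10 fell.

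Hydrochlorothiazide is a diuretic of related use that was given at the same dose and time, and it was the only such pair tested. Both compounds carry a sulfonamide; hydrochlorothiazide is built on a benzothiadiazine ring and chlorthalidone is not. After hydrochlorothiazide no member was called against DMSO, where 0.303% of all probe sets were called higher and 1.87% lower. At an unadjusted p under 0.05 there were 3 members, all lower, where 12.3% of all probe sets were lower and 9.41% higher. In the direct contrast 17 of 37 members were higher with chlorthalidone and none lower, where 4.47% of all probe sets were higher and 0.858% lower. The median member difference was 0.23, against -0.01 over all probe sets. Against DMSO, probe sets within the members' range of mean signal had a median of -0.05 with hydrochlorothiazide and -0.004 with chlorthalidone. Hexa had 9.52, 9.42 and 9.80 with hydrochlorothiazide, below the chlorthalidone arrays given above, a difference of 0.64 (95% interval 0.48 to 0.80, adjusted p = 3.21e-07). Lamp2 had 9.98, 9.84 and 9.88 with chlorthalidone, against 9.38, 9.49 and 9.71 with hydrochlorothiazide (0.38, interval 0.24 to 0.51). Atp6v1d had 11.43, 11.44 and 11.68 with chlorthalidone, against 11.15, 11.06 and 11.24 with hydrochlorothiazide (0.37, interval 0.22 to 0.52). The groups were apart in these genes, and hydrochlorothiazide replicate 3 was the closest to chlorthalidone in each. Asah1 differed by 0.36 and Ctsl by 0.32. Man2b1 and Naglu, at 0.02 (-0.10 to 0.13) and 0.10 (-0.04 to 0.24), did not pass the test.

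The interquartile range of the arrays differed along with this contrast, at 3.13 to 3.21 for chlorthalidone and 2.97 to 3.17 for hydrochlorothiazide. With it as a covariate 8 members were called, all higher. The count was 8 without hydrochlorothiazide replicate 1, 21 without hydrochlorothiazide replicate 3 and 2 in a model of these 6 arrays alone.

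**Figure D5:**
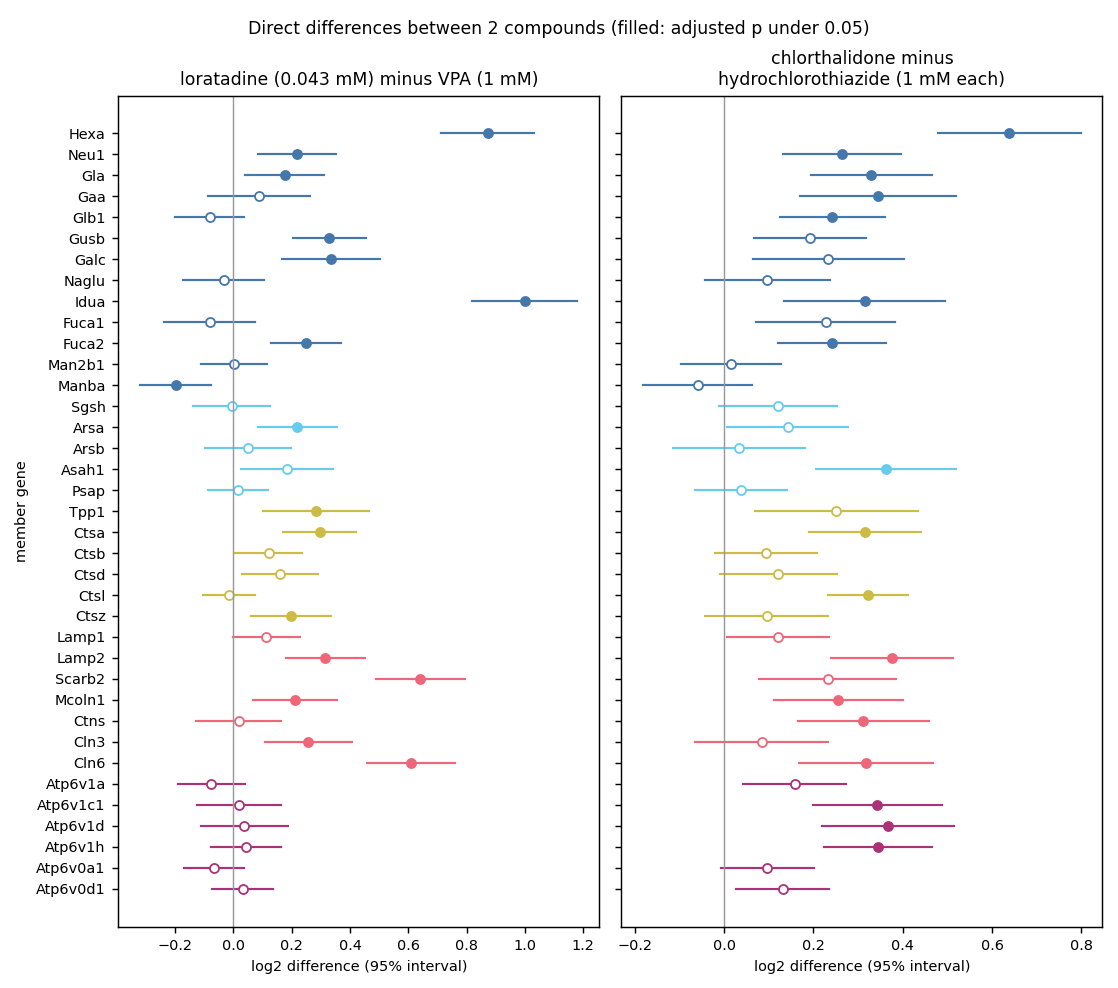
Log2 difference with its 95% interval for each member between loratadine and VPA and between chlorthalidone and hydrochlorothiazide, as first compound minus second (filled, adjusted p under 0.05). Idua stands at 1.00 in the first contrast, and the V-ATPase subunits lie near 0 there.

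Smaller counts followed the other compounds. Sulfasalazine, an anti-inflammatory drug, was followed by a rise in 11 of 37 members, of which 6 were glycosidases, with 5.4% of all probe sets called higher and 3.5% lower. Fuca2, a secreted fucosidase, had 8.94, 9.02 and 8.95 with sulfasalazine and 8.47, 8.51 and 8.61 with DMSO (0.44, adjusted p = 1.78e-06). Idua changed by 0.41 and Cln6 by 0.40. The Fuca2 arrays were separate between the groups. The sulfasalazine count was 4 with the interquartile range as a covariate (3.30 to 3.31 with sulfasalazine, 3.11 to 3.23 in DMSO), 6 without DMSO replicate 2, and 7 without sulfasalazine replicate 2 or 3. It was 21 with the median of each array subtracted. Of the stem cell markers 1 of 10 rose, and of the fibroblast markers 1 of 15 fell.

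Paracetamol was followed by a rise in 8 of 37 members, with 4.61% of all probe sets called higher and 4.15% lower. Man2b1, the lysosomal alpha-mannosidase, had 10.83, 10.85 and 10.76 with paracetamol and 10.24, 10.30 and 10.41 with DMSO, groups that did not overlap (0.50 ± 0.0557, adjusted p = 7.54e-09). Ctns changed by 0.43 and Cln6 by 0.38. The count was 4 without DMSO replicate 2 and 5 without paracetamol replicate 2. Against the other 18 compounds on average, 2 members were higher and 6 lower, where 6.89% of all probe sets were higher and 8.5% lower, and Fuca2, higher against DMSO, stood at -0.037. Of the stem cell markers 7 of 10 fell, with a mean per array of 11.92 to 11.93 in paracetamol and 12.11 to 12.14 in DMSO, and their part in the member changes was not tested.

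All trans retinoic acid was followed by a rise in 5 of 37 members (13.5%), with 5.9% of all probe sets called higher and 3.92% lower. Among probe sets within the members' range of mean signal, 9.39% were higher and 4.65% lower. Manba had 10.04, 9.98 and 9.91 with retinoic acid, against 9.76, 9.65 and 9.69 with DMSO (0.27, adjusted p = 0.00107). These arrays did not overlap, and the direction was the opposite of that after loratadine. Fuca2 and Ctsz each changed by 0.26. Against the other 18 compounds on average, 3 members were higher and 13 lower, where 8.62% of all probe sets were higher and 8.89% lower, and in a model of these 6 arrays alone 1 was called. Without retinoic acid replicate 1 the count was 8. Of the fibroblast markers 1 of 15 rose and 2 fell, and of the stem cell markers 1 of 10 rose; their part in the member changes was not tested.

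Ondansetron, an antiemetic, was followed by a rise in 4 members, with 0.289% of all probe sets called higher and 0.0413% lower, and metoclopramide, also an antiemetic, by a rise in 3, with 0.184% higher and 0.0138% lower. Ctns had 9.76, 9.96 and 9.80 with ondansetron and 9.47, 9.42 and 9.44 with DMSO (0.40, adjusted p = 0.00269). With metoclopramide Ctns had 9.91, 9.87 and 9.91 (0.46, adjusted p = 0.000637). Both sets of arrays were above DMSO. Fuca2 changed by 0.29 with ondansetron and 0.37 with metoclopramide, and Ctsl by 0.26 and 0.22. The fourth ondansetron call was Lamp2 (0.28, adjusted p = 0.0444). For ondansetron 25 members had all 3 arrays above DMSO, against 12.3% of all probe sets. At an unadjusted p under 0.05 there were 24, all higher, where 6.53% of all probe sets were higher. The ondansetron count was 2 without DMSO replicate 1 or 2 and 1 without ondansetron replicate 2. In a model of the 6 arrays of each comparison alone no member was called for either drug.

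No member was called by limma after dimethadione, fluconazole, (+/-)-Thalidomide, 5-azacytidine, (-)-d-penicillamine, methotrexate, topiramate, dexamethazone or hydrochlorothiazide. At an unadjusted p under 0.05 there were 12 members for dimethadione (10.4% of all probe sets), 9 for 5-azacytidine (8.06%), 8 for fluconazole (6.71%), 5 for thalidomide (7.61%), 4 for methotrexate (6.59%), 2 for penicillamine (8.49%), 1 for topiramate (11.8%) and 0 for dexamethazone (22.6%). All 12 dimethadione members were higher, where 6.75% of all probe sets were higher. The 4 methotrexate members were all higher too (3.31%). Higher were 7 of 9 for 5-azacytidine (4.19%), 7 of 8 for fluconazole (2.62%), 4 of 5 for thalidomide (2.3%) and 1 of 2 for penicillamine (7.5%). The topiramate member was lower, where 6.86% of all probe sets were lower. Of all probe sets, 1.51% were higher and 4.74% lower with dexamethazone and 0.101% higher and 0.0184% lower with dimethadione; 0% were called with the other 6 besides hydrochlorothiazide. With trend and robust settings in limma, hydrochlorothiazide had 1 member called.

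Across compounds the members differed in how widely they responded. Fuca2 was called after 10 compounds, at 0.21 to 0.62, and Ctns after 8, at 0.40 to 0.59. Gaa and Ctsl were called after 7 each, and Atp6v1a and Atp6v0a1 after 6 each. These counts share the DMSO arrays and are descriptive. With the average of the other 18 compounds in place of DMSO, Fuca2 kept its call in 3 of the 10, lost it in 5 and turned below 0 in 2, and Ctns kept its call in 3 of the 8. Hexa was called after 4 compounds (loratadine 0.75, clozapine 0.65, chlorthalidone 0.57 and glybenclamide 0.48) and was at -0.12 after VPA. The 3 members called in none ranged from -0.19 to 0.18 for Sgsh, -0.16 to 0.03 for Arsb and -0.15 to 0.11 for Lamp1. Lamp1 had the most E-boxes of any member and the brightest probe set.

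A list of 78 other lysosomal genes was compared in the same way, and 70 of them were measured. After loratadine 31 rose and 1 fell, where 10.9% of all probe sets were higher and 8.26% lower. Cd68, a macrophage and lysosomal membrane glycoprotein, had 10.27, 10.45 and 10.47 on the loratadine arrays, against a DMSO mean of 9.39 ± 0.064 (SD, n = 3), a log2 fold change of 1.01. Dnase2a, an acid nuclease, changed by 0.80, and the proteases Dpp7 and Scpep1 by 0.66 and 0.56. Ctbs, a chitobiase, changed by 0.57, Laptm4b by 0.53 and the V-ATPase accessory genes Atp6ap2 and Atp6ap1 by 0.48 and 0.30. After VPA 31 rose and 1 fell, where 15.5% of all probe sets were higher and 11% lower. Slc17a5, the exporter of sialic acid, had 10.74, 10.73 and 10.75 on the VPA arrays against a DMSO mean of 9.68 (1.06). Lipa, the acid lipase, changed by 0.94, Ostm1, the partner of the chloride transporter Clcn7, by 0.82, and Gm2a, the activator of ganglioside breakdown, by 0.72. Lgmn and Prcp, both proteases, changed by 0.61 and 0.36, and the pump genes Tcirg1 and Atp6ap2 by 0.57 and 0.37. Lipa was not called after loratadine (0.04) and Cd68 was not called after VPA (-0.12). The 18 V-ATPase genes of this list had lower median changes than the 6 member subunits. Probe sets of those 6 lay between the 76.2 and 93.4 percentile of brightness. How bright the genes of this list were was not compared with the members, so lower medians may not mean a weaker response. After loratadine 5 of the 18 rose and 1 fell (median 0.07), after VPA 6 rose (0.09) and after clozapine 1 rose (0.08). After the other compounds 22 of the 70 rose for glybenclamide (6.79% of all probe sets), 17 for sulfasalazine (5.4%), 13 for paracetamol (4.61%) with 2 falling (4.15%), 7 for clozapine (1.1%) and 7 for chlorthalidone (1.44%). For retinoic acid 5 rose (5.9%) and 2 fell (3.92%). The median log2 fold change of the 70 was below that of the members, at 0.15 against 0.37 after loratadine and 0.14 against 0.23 after VPA. It was 0.12 against 0.22 after glybenclamide, 0.09 against 0.23 after clozapine and 0.09 against 0.19 after chlorthalidone. For sulfasalazine it was 0.08 against 0.15, and for paracetamol 0.08 against 0.09. Both lists were chosen with earlier results of these data known.

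The study labelled its compounds by class, and the members were compared between classes with each compound as 1 value. Calls against DMSO appeared after 8 of 9 non-teratogens and 2 of 10 teratogens (VPA and All trans retinoic acid), counts that share DMSO. Over all probe sets, any call at all appeared after 9 of 9 non-teratogens and 4 of 10 teratogens. In limma on the 19 compound means, 0 of 37 members and 0% of all probe sets were called, with a smallest adjusted p of 0.976 among the members. At an unadjusted p under 0.05 there were 16 members, all lower in teratogens, against 2.97% of all probe sets lower at that p. Their median difference, teratogens minus non-teratogens, was -0.10 over all 37, against 0.01 over all probe sets. Hexa averaged 9.62 in teratogens and 9.96 in non-teratogens, a difference of -0.35 (95% interval -0.54 to -0.16). Idua averaged 8.19 in teratogens and 8.53 in non-teratogens, also -0.35. Neither difference passed adjustment, and the trend and robust settings also gave 0 members.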

How the data were processed

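RNA of 60 arrays (19 compounds and DMSO, 3 arrays each) was measured on Affymetrix mouse arrays. Each deposited value is the log2 signal of a probe set on an array, made by the authors with RMA per the submitters' processing notes; its version is not given in the sources used here. They were used as deposited. The platform annotation lists 23410 of 35556 probe sets, 21789 with 1 symbol (tested), 1621 with several and 12146 not at all. Precision is limited by the number of arrays, since arrays have no reads to count.

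A linear model with a mean per group was fitted to all arrays (lmFit and eBayes of limma 3.58.1, R 4.3.3; 40 residual and 7.31 prior degrees of freedom). Benjamini-Hochberg adjustment ran over all 21789 probe sets of a contrast, and a call is an adjusted p under 0.05. The classes were compared by limma on 19 compound means. The code was tested on simulated data.

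The members and gene lists were chosen with earlier results of these data known. Named are, for loratadine and VPA, up to 4 called members per role with the largest change; for other compounds up to 3; members called lower or never, and those called most widely; and up to 2 called genes per role of the other lysosomal list. Further members are listed with their change alone. The alternatives were quantile normalisation, median centring, a filter on dim probe sets, all probe sets, trend and robust eBayes, array interquartile range or the letter b of some titles as a covariate, the mean of several probe sets, a model of 6 arrays, the average of the other 18 compounds in place of DMSO, and leaving out each array. Promoter windows came from RefSeq on GRCm38.p6, read with Python 3.11.15.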

Additional observations from a re-analysis of the deposited data

How the results depend on the processing

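Counts of members called after loratadine (25 to 34), after VPA (21 to 28) and between loratadine and VPA (12 to 20) stayed within 1.5 times their reported value in every alternative, and the class comparison gave 0 in all 28. Leaving out single arrays gave 8 to 11 for chlorthalidone, 8 to 16 for clozapine, 13 to 21 for glybenclamide, 6 to 13 for sulfasalazine, 4 to 8 for paracetamol, 4 to 8 for retinoic acid, 1 to 4 for ondansetron, 2 to 3 for metoclopramide, 0 to 4 for hydrochlorothiazide, 0 to 3 for dexamethazone and 8 to 21 for chlorthalidone against hydrochlorothiazide. Against the average of the other 18 compounds, the counts were 7 for chlorthalidone, 8 for clozapine, 23 for dexamethazone, 20 for hydrochlorothiazide, 15 for topiramate, 16 for retinoic acid, 7 for penicillamine, 5 for 5-azacytidine, 1 for methotrexate, 1 for metoclopramide and 0 for ondansetron; Fuca2 then reversed to -0.035 for chlorthalidone and -0.037 for paracetamol. In that setting the calls for dexamethazone, hydrochlorothiazide, topiramate, penicillamine, 5-azacytidine, methotrexate and metoclopramide were all lower. A model of 6 arrays gave 6 for chlorthalidone, 4 for clozapine, 4 for paracetamol, 1 for retinoic acid, 0 for metoclopramide, 0 for ondansetron and 2 for chlorthalidone against hydrochlorothiazide. The array interquartile range as a covariate gave 21 for chlorthalidone, 14 for glybenclamide, 4 for sulfasalazine, 2 for ondansetron and 8 for chlorthalidone against hydrochlorothiazide. Median centring gave 21 for sulfasalazine, 10 for ondansetron, 5 for metoclopramide and 1 for hydrochlorothiazide. Quantile normalisation gave 21 for chlorthalidone and 1 each for dimethadione and hydrochlorothiazide. The filter on dim probe sets gave 5 for metoclopramide and 1 each for dimethadione and hydrochlorothiazide; trend and robust eBayes gave 1 for hydrochlorothiazide. The letter b as a covariate gave 2 for 5-azacytidine and 1 each for dimethadione, fluconazole and hydrochlorothiazide. The cause of these moves was not tested. No paired analysis was possible because the replicate numbers only follow the order of the deposited samples.

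With 3 arrays per group and 1 dose and time per compound, small changes and dose dependence could not be resolved. The array signal gives RNA levels only, so enzyme activity, lysosome number and acidity were not measured.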

Other observations

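Some genes of the other lysosomal list changed by more than any member in the same comparison; those named here were chosen after their values were seen. After All trans retinoic acid, Acp5, a tartrate-resistant acid phosphatase, had 9.04, 9.00 and 9.24 on the 3 arrays, against a DMSO mean of 7.97 ± 0.0896 (SD, n = 3). Its log2 fold change was 1.12 ± 0.0856 (SE, limma adjusted p = 9.68e-15), larger than that of any member after any compound, and the arrays did not overlap with DMSO. Dnase2a and Sort1, a sorting receptor, also rose after retinoic acid (0.39 and 0.37), and Atp6v0a4, a V-ATPase subunit, fell by 0.30.

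After clozapine Dpp7, a dipeptidyl peptidase, had 10.51, 10.35 and 10.43, against a DMSO mean of 9.64 ± 0.109 (SD, n = 3). The change of 0.79 ± 0.076 (limma adjusted p = 1.9e-10) exceeded that of Hexa, the leading member there. Cd68 rose after glybenclamide (0.75) and sulfasalazine (0.59) as well as loratadine. After dexamethazone 1 gene of this list was called, Atp6v0e, which fell by 0.39.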
